A study of Mus musculus with 2 samples.

Results

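Foxp2 excitatory nuclei were a small group of glutamatergic neurons in 2 single-nucleus RNA libraries of mouse hippocampus. They numbered 57 in the library of the Capza2 heterozygote and 66 in the wild-type library, 123 of 13635 nuclei kept in all. Members were chosen from measured values. A nucleus needed at least 500 genes detected and at most 5% of its unique molecular identifiers (UMIs, 1 per captured transcript) from mitochondrial genes, with at least 3 UMIs of Foxp2 and at least 1 of the vesicular glutamate transporters Slc17a7 and Slc17a6 summed. It could hold no more than 1 UMI of Gad1 and Gad2 (inhibitory neurons), 1 of Mobp and Mog (oligodendrocytes), 1 of Gja1 and Aqp4 (astrocytes), 2 of Prox1 and C1ql2 (dentate granule cells) and 4 of Nectin3, Cd109 and Rerg. These 14 genes are not results here.

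The mutant, called Het, carried 1 knocked-out copy of Capza2, which encodes an alpha subunit of the actin-capping protein that closes the fast-growing ends of actin filaments. The control, called WT, was wild-type. Hippocampi of both were dissected and used frozen or fresh without drug treatment or fixation, and the source tissue held mixed neurons and glia. The labels give no age or sex, do not say which part of Capza2 was deleted, and do not say whether animals were pooled. Each genotype was 1 library, so a difference between Het and WT cannot be told apart from a difference between 2 preparations, and no p-value is given. Intervals are exact at 95% and cover counting error only.

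The members carried 709398 UMIs in Het and 837091 in WT, with medians of 10087 and 10868 UMIs per nucleus. Other excitatory nuclei with no Foxp2 UMI, 2156 in Het and 2261 in WT, had medians of 7634.5 and 8024. The whole matrices held 62702888 and 58701532 UMIs over 7801 and 6512 barcodes, of which 7.56% in Het and 1.35% in WT were not kept. Both libraries shared 13 barcode sequences, carried by 0 Het members and 1 WT member. Transcripts of Ttr, a choroid plexus gene, were found in 75.4% of Het members and 28.8% of WT members, and in 71.7% and 29.5% of oligodendrocyte nuclei. Members held a mean of 4.51 mitochondrial UMIs in Het and 10.95 in WT.

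Foxp2 is a forkhead transcription factor, best known for its links to speech and motor learning. In the cortex it is made mainly by deep-layer excitatory neurons, among them layer 6 neurons that project to the thalamus. Those corticothalamic neurons also carry the corepressor Tle4 and the transcription factors Sox5, Tbr1 and Zfpm2, and the cortex next to the hippocampus can be taken along in a dissection. Hs3st4, the other gene that gave these nuclei their working name, encodes an enzyme that adds sulfate to heparan sulfate, a sugar chain on the cell surface that binds growth factors and adhesion proteins.

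The label of deep-layer neurons was set beside genes the rule did not use. Hs3st4 and Tle4 also helped to name the group, so finding them does not test the name. Hs3st4 was detected in 53 of 57 Het members (93.0%, interval 83.0 to 98.1) and in 62 of 66 WT members (93.9%, interval 85.2 to 98.3). Tle4 was detected in 98.2% and 98.5%, and both genes together in 91.2% and 92.4%. No member lacked both, which allows a share of up to 6.27% in Het and 5.44% in WT by the exact interval. Oligodendrocyte nuclei, which should lack Hs3st4, had a UMI of it in 7.63% and 8.18%, at a median depth of 2089 and 2156 UMIs. Nuclei with at least 3000 UMIs were also thinned to 3000, which left 57 and 64 members, 518 and 599 CA1 pyramidal nuclei and 121 and 84 of 629 and 440 oligodendrocyte nuclei. Hs3st4 was then found in 93.0% and 95.3% of those members, 58.7% and 59.9% of those CA1 nuclei and 8.26% and 8.33% of those oligodendrocyte nuclei. Tle4 was found in 87.7% and 81.2% of the thinned members, against 31.4% and 29.8% of the thinned oligodendrocyte nuclei.

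Sox5 was present in 98.2% of Het and 90.9% of WT members, and Zfpm2 in 87.7% and 93.9%. In excitatory nuclei with no Foxp2 UMI, Sox5 was present in 37.8% and 45.1% and Zfpm2 in 63.5% and 65.2%. Tbr1 was detected in only 28.1% and 34.8%, at medians of 0 UMIs per nucleus. Several markers used for cortical layer 6 corticothalamic cells were sparse: Syt6 was found in 10.5% and 13.6%, Rprm in 15.8% and 18.2%, and the neurotensin receptor Ntsr1 in 1.75% and 3.03%. Hs3st4, Tle4, Sox5 and Zfpm2 were thus found in most members, while Ntsr1, a defining marker of cortical corticothalamic cells, was nearly absent. Zfpm2, Hs3st4 (53.6% and 57.6%) and Tle4 (57.5% and 52.8%) were also found in most excitatory nuclei with no Foxp2 UMI. Thalamic and habenular markers summed to 39.5 and 52.6 CPM (counts per 1000000 UMIs), against 16.7 and 17.8 in excitatory nuclei with no Foxp2 UMI. Prkcd and Lef1 had 0 UMIs in the members of both libraries. Of 2 thalamic and habenular genes tested, Synpo2 was at least 2-fold higher in members in both libraries. Of the layer 6b list, Cplx3 had 0 UMIs in Het and 6 in WT. The whole list summed to 148 and 123 CPM, against 35.6 and 30.9 in excitatory nuclei with no Foxp2 UMI. Of 3 layer 6b genes tested, Hcrtr2 and Svil were at least 2-fold higher in members in both libraries.

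**Figure D1:**
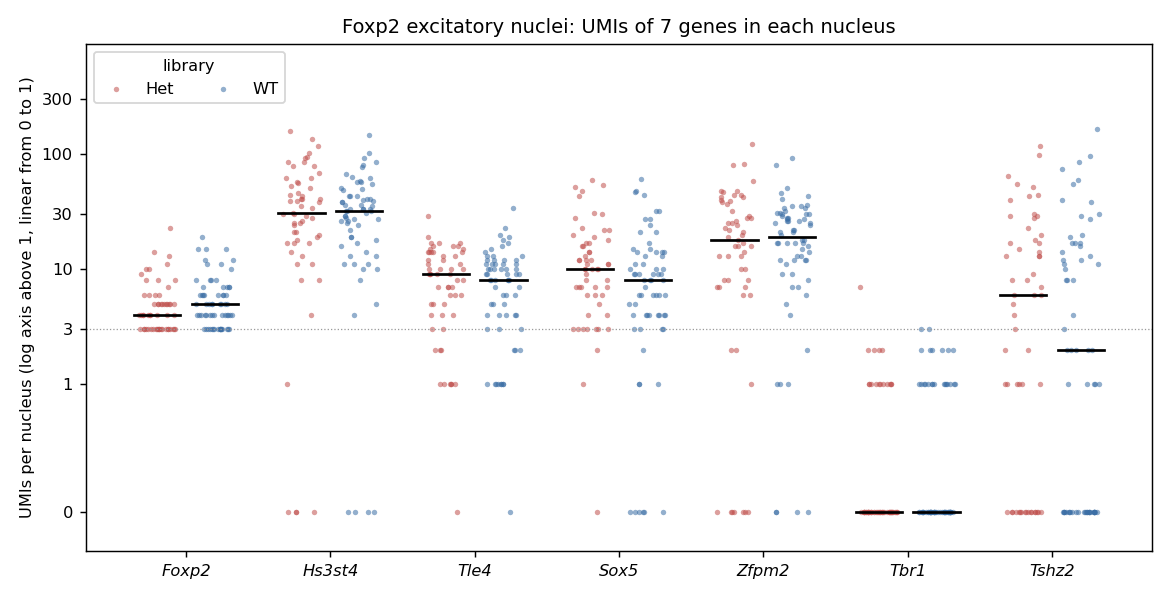
UMIs of Foxp2, Hs3st4, Tle4, Sox5, Zfpm2, Tbr1 and Tshz2 in each Foxp2 excitatory nucleus (points; 57 Het in red, 66 WT in blue), with the median as a black bar; the vertical axis is logarithmic above 1 UMI. Hs3st4 medians were 31 and 32 UMIs, Tbr1 medians 0, and Tshz2 ran from 0 to 118 in Het and from 0 to 164 in WT.

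The nuclei nearest to the Foxp2 threshold were compared on genes outside the rule. Nuclei with exactly 3 Foxp2 UMIs, 21 in Het and 17 in WT, had 3312 and 2948 CPM of Hs3st4. Nuclei with 2, which were left out (27 and 43), had 1687 and 2433 CPM. Tafa1, a secreted protein gene high in hippocampal pyramidal nuclei, was detected in 42.9% and 17.6% of nuclei at 3 UMIs and in 66.7% and 41.9% at 2. Its level was 178 and 228 CPM at 3 UMIs and 1572 and 464 CPM at 2. These values describe the edge of the group and were not tested.

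**Figure D2:**
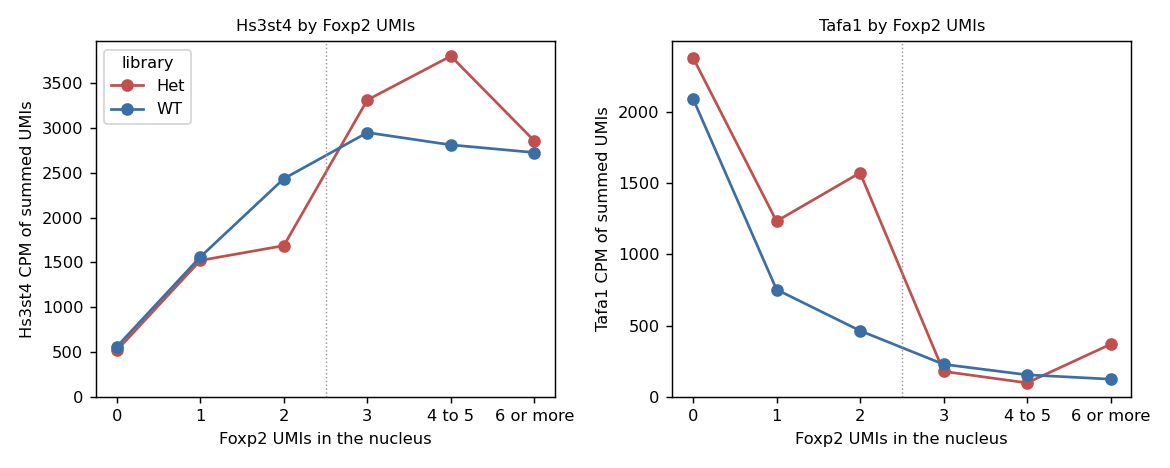
Level of Hs3st4 (left) and Tafa1 (right) in CPM of summed UMIs, for excitatory nuclei grouped by their number of Foxp2 UMIs, with Het in red and WT in blue; the dotted line marks the threshold of 3. From 0 to 3 Foxp2 UMIs, Hs3st4 went from 517 to 3312 CPM in Het and from 559 to 2948 in WT, and Tafa1 from 2380 to 178 and from 2092 to 228.

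Genes that make or modify heparan sulfate differed between these nuclei and excitatory nuclei with no Foxp2 UMI. Hs3st4 among them also helped to name the group. A gene was called when its CPM was at least 2-fold apart in the same direction in both libraries. Of the 31 genes of the heparan sulfate list, 27 were tested, 5 were called higher and 5 lower. Over all 13390 genes tested, 3.05% were called higher and 4.62% lower. Hs3st4 stood at 3308 CPM in Het and 2801 in WT, against 517 and 559 in other excitatory nuclei. Hs3st5, which encodes another 3-O-sulfotransferase, stood at 240 and 345 CPM against 15.8 and 12.9, and Hs3st2 of the same family at 116 and 143 against 15.1 and 25.8. Hs3st5 was detected in only 47.4% of Het and 60.6% of WT members. Sulf1, which encodes an extracellular enzyme that removes 6-O-sulfate, stood at 78.9 and 98.0 against 7.65 and 5.93, and Sulf2, its relative, at 86.0 and 80.0 against 22.6 and 30.4.

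Of the 5 genes called lower, 4 act at other steps of the same pathway and 1 is a further 3-O-sulfotransferase. Hs6st3, a 6-O-sulfotransferase, stood at 787 and 1106 CPM against 2639 and 2689, and Ndst4, an N-sulfotransferase, at 103 and 106 against 309 and 364. The glypican genes Gpc5 and Gpc4, which encode core proteins that carry the chains, were 3.29-fold and 5.06-fold lower in Het and 2.43-fold and 5.95-fold lower in WT. Hs3st1, the 3-O-sulfotransferase, had 1 UMI in the members of each library, for a log2 ratio of -3.63 (interval -8.93 to -1.14) in Het and -4.07 (interval -9.38 to -1.58) in WT. Within the 3-O-sulfotransferases, therefore, Hs3st2, Hs3st4 and Hs3st5 were the higher members and Hs3st1 the lower one.

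The promoter windows of the 3 higher 3-O-sulfotransferase genes are shown because each was called higher on summed UMIs in both libraries. They are RefSeq sequences of build GRCm38.p6, 250 bases before to 50 after the gene start, all on the plus strand, at chr7:123982578-123982877 for Hs3st4, chr10:36506557-36506856 for Hs3st5 and chr7:121392046-121392345 for Hs3st2. Capitals mark CG dinucleotides.
Hs3st4: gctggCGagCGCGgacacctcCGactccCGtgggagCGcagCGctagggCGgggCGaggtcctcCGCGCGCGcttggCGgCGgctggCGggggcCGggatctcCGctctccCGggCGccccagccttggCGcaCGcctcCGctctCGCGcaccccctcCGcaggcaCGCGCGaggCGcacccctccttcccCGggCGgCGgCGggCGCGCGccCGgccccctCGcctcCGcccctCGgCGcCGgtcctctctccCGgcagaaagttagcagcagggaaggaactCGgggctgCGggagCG
Hs3st5: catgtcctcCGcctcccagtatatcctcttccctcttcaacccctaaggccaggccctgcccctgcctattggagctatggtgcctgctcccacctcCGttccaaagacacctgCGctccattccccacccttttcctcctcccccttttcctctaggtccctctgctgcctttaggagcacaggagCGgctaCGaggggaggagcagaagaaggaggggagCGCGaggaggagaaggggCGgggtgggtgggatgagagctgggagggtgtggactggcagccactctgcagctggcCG
Hs3st2: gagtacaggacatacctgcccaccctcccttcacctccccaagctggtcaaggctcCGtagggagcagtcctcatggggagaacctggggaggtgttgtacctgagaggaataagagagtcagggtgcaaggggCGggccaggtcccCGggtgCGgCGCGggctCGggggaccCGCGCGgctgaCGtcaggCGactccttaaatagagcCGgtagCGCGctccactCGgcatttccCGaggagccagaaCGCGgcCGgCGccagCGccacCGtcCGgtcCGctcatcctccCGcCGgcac
The windows held 47, 9 and 27 CG dinucleotides, against a median of 7 over 32851 promoter windows. The forkhead-type motifs TGTTTAC and TATTTAT, searched on both strands, were in none of the 3 windows and in 3.65% and 5.60% of all windows. With shares that low, none in 3 windows is the usual outcome, and forkhead binding was not tested.

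In all, and with these 10 genes included, 408 genes were called higher and 618 lower than in other excitatory nuclei. Of the 618, 279 had at most 6 UMIs in the members of both libraries together. The gene with the largest ratio held in both libraries was Rai14, an actin-associated protein gene, at 142 and 203 CPM against 6.89 and 10.2. Cntnap4, an adhesion protein of the contactin-associated family on chromosome 8, stood at 754 and 698 CPM against 31.3 and 42.2 and was detected in 89.5% and 89.4% of members. Rorb, a nuclear receptor gene, was 12.0-fold and 11.5-fold higher. Pamr1, Sntb1, Cobll1, Lpar1, Adgrd1, Col5a1, Ror2, Nxph3 and Myocd were also among the 15 leading genes, with Hs3st5 and Sulf1. Some were found in few members, as Ror2 in 12.3% of Het and 18.2% of WT members and Myocd in 17.5% and 15.2%. Adgrd1 differed between libraries, at 63.4 CPM in Het and 21.5 in WT.

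Among the leading lower genes was Tafa1, at 217 and 157 CPM against 2380 and 2092. Zbtb20, a transcription factor of hippocampal pyramidal identity, stood at 400 and 287 CPM against 2327 and 2055. Of the other leading lower genes, Doc2b, St8sia6, Shoc1, Evc2, Smoc2, Plekhg1 and Bche had between 1 and 3 UMIs in the members of each library.

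**Figure D3:**
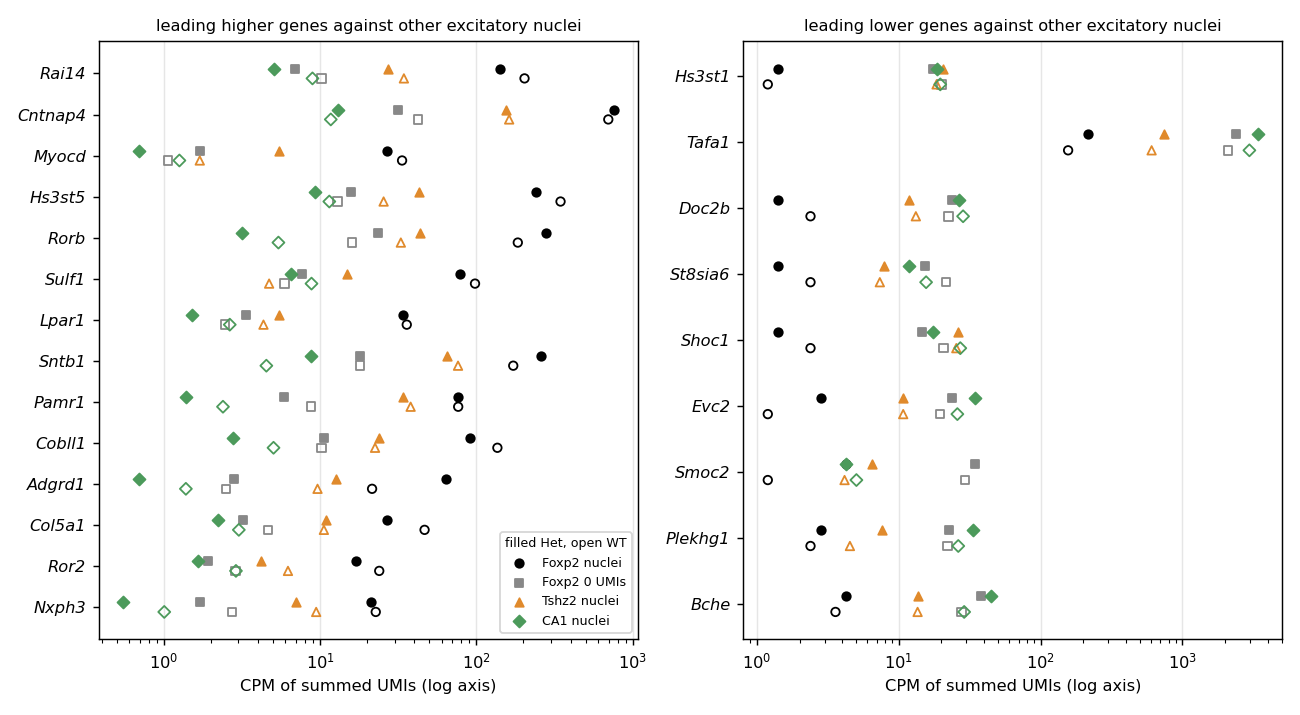
CPM of summed UMIs on a log axis for leading higher (left) and lower (right) genes against other excitatory nuclei, in Foxp2 nuclei, excitatory nuclei with no Foxp2 UMI, Tshz2 nuclei and CA1 nuclei (Het filled, WT open). Cntnap4 lay at 754 and 698 in Foxp2 nuclei and at 31.3 and 42.2 in those with no Foxp2 UMI, and Tafa1 at 217 and 157 against 2380 and 2092.

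Of 33 cortical layer transcription factors, 32 were tested, 8 were called higher and 7 lower, beside 3.05% and 4.62% of all 13390 genes. Besides Rorb, Tle4, Sox5 and Zfpm2, the higher ones were Tbr1, Fezf2, Tshz2 and Tshz3. Tbr1 stood at 36.7 and 39.4 CPM against 8.00 and 6.72. The lower ones were Zbtb20, Zeb2, Mef2c, Lhx2, Pou3f1, Pou3f2 and Emx2. Zeb2 was 3.30-fold lower in both libraries, while Pou3f2 and Emx2 had 1 UMI each in the members of each library. Foxp1, a close relative of Foxp2, stood at 530 and 487 CPM against 489 and 499.

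Receptor genes also differed between these nuclei and other excitatory nuclei. Among 33 neuromodulator receptors, 25 were tested, 8 were called higher and 2 lower. Of all 13390 genes tested, 3.05% were called higher and 4.62% lower. The serotonin receptor genes Htr2c (517 and 521 CPM against 118 and 96.9) and Htr1f (451 and 486 against 186 and 187) held the most UMIs. The orexin receptor Hcrtr2 stood at 77.5 and 57.3 against 14.9 and 9.87, and the muscarinic receptor Chrm2 at 137 and 75.3 against 17.0 and 19.4. Chrna4, Chrna5, Oprm1 and Drd1 were the other higher ones. Of 7 metabotropic glutamate receptors, 3 were called higher: Grm3 (654 and 753 CPM against 139 and 129), Grm8 and Grm4. The kainate receptor gene Grik3 stood at 224 and 340 against 31.8 and 35.6, while the AMPA receptor gene Gria1, at 729 and 810 against 2355 and 2312, was lower.

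Adhesion and guidance genes differed in both directions, where 3.05% of all 13390 genes were called higher and 4.62% lower. Of 44 synaptic and cell adhesion genes tested, 7 were called higher and 4 lower, with Cdh18 at 1105 and 1478 CPM against 145 and 151 and Cdh8 at 120 and 131 against 665 and 647. Of 40 axon guidance genes tested, 4 were higher and 7 lower, the latter led in level by the ephrin receptor Epha6 at 949 and 1215 against 4426 and 4223. Dpp10, which encodes an auxiliary subunit of Kv4 potassium channels, stood at 8432 and 14261 CPM against 1043 and 1292. Capzb, the beta subunit of capping protein, was 2.14-fold and 2.13-fold lower than in other excitatory nuclei, on 16 and 20 UMIs.

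The members were also compared with excitatory nuclei with at least 3 UMIs of Tshz2 and at most 1 of Foxp2, 336 in Het and 472 in WT. Tshz2 encodes a zinc finger protein found in subicular and near-projecting cortical neurons. Against them, 103 of 9458 genes (1.09%) were called higher and 251 (2.65%) lower. Hs3st4 was 4.68-fold and 3.92-fold higher, from 706 and 715 CPM in Tshz2 nuclei. Hs3st5 was 5.62-fold and 13.6-fold higher, and Zfpm2 3.88-fold and 3.95-fold. Of 25 heparan sulfate genes tested, Sulf1, Hs3st2, Hs3st4 and Hs3st5 were called higher and Ndst4, Hs3st1 and Hs6st3 lower. Sulf2, Gpc5 and Gpc4 were thus not called against Tshz2 nuclei. Bmpr1b, a receptor for bone morphogenetic proteins, had the largest ratio held in both libraries, at 63.4 and 51.4 CPM against 3.14 and 4.53, followed by the glycine receptor gene Glra2 at 56.4 and 76.5 against 7.84 and 7.17. Bmpr1b was detected in only 17.5% of Het and 19.7% of WT members, and Glra2 in 24.6% and 43.9%. Galntl6, Tenm1, Cdh18, Fbxl7 and Trhr were also among the 15 leading genes. Trhr was detected in 14.0% and 19.7% of members, and Cdh18 in 94.7% and 93.9%. On the lower side, Fn1, a fibronectin gene that marks subiculum, stood at 5.64 and 10.8 CPM against 68.8 and 99.3, and Sorcs1, a sorting receptor gene, at 43.7 and 39.4 against 298 and 307.

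Tshz2 itself divided the members. It was found at 3 or more UMIs in 32 Het and 29 WT members and at 2 or fewer in 25 and 37, with 8 and 10 members at 1 or 2 UMIs and 2 and 2 at 3 or 4. The members with high Tshz2 therefore meet part of the description of the Tshz2 set while differing from it in Foxp2.

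Clustering of the 123 members gave 6 sub-clusters, kept as numbers because they rest on few nuclei. The genes below took part in the clustering, so their levels describe it. Sub-cluster 0, with 18 Het and 10 WT nuclei, had Tshz2 at 2692 CPM, Vwc2l at 1991 and Dcc, a netrin receptor gene, at 2486, and 22 of its 28 nuclei had a UMI of the potassium channel gene Kcnh8. Sub-cluster 1, with 14 and 11, had the lowest Hs3st4 (1667 CPM), with Tafa1 at 604 and Zbtb20 at 909 CPM. Its median UMI count of 15421 and its median Scrublet doublet score of 0.0565 were the highest of the 6. Sub-clusters 2 and 3, with 7 and 18 and with 8 and 17 nuclei, had Dpp10 at 20395 and 24804 CPM, and sub-cluster 3 had Hs3st5 at 1029. Sub-cluster 4 (6 and 5) had Tbr1 in 10 of 11 nuclei at 187 CPM and Rorb at 573. Sub-cluster 5 (4 and 5) had Tshz2 in all 9 nuclei at 2424 CPM, with Zfpm2 in 2. Hs3st4 was detected in every nucleus of 5 sub-clusters, and in 17 of 25 nuclei of sub-cluster 1.

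The inhibitory marker list summed to 602 and 464 CPM in members, with Dlx1 and Dlx6os1 at 0. In sub-clusters 0 and 1 it summed to 1110 and 778 CPM and in the other 4 to between 24.5 and 52.1. Of its genes, Nxph1 and Kcnip1 were called higher than in other excitatory nuclei. The median doublet score was 0.0205 in sub-cluster 0, the lowest of the 6, and 0.0565 in sub-cluster 1, the highest. The part of doublets in the inhibitory sums was not tested.

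**Figure D4:**
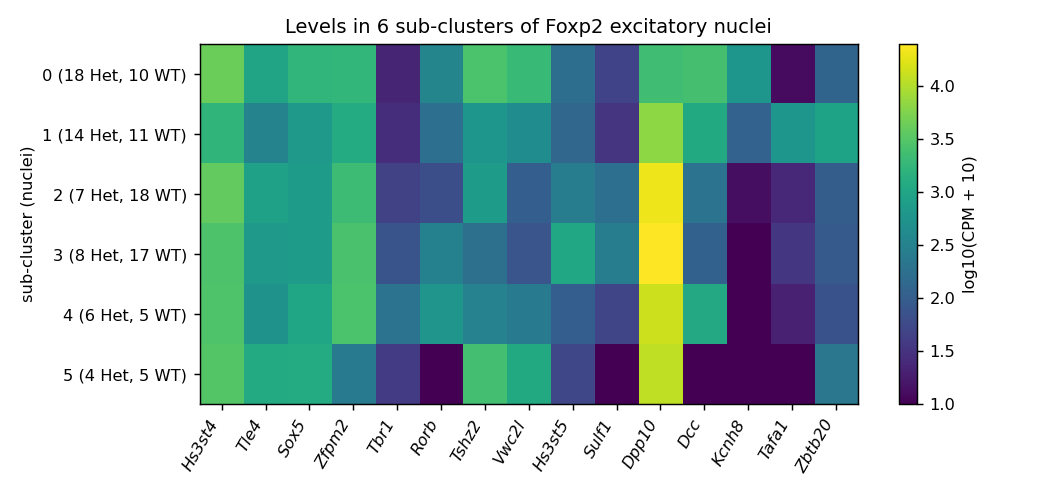
Levels of selected genes, as log10(CPM + 10), in the 6 sub-clusters of Foxp2 excitatory nuclei, with Het and WT nuclei counted beside each. Sub-clusters 0 and 5 had Tshz2 at 2692 and 2424 CPM, sub-clusters 2 and 3 Dpp10 at 20395 and 24804, and Tafa1 reached 604 only in sub-cluster 1.

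The stated aim of the series was to compare the proportions of cell populations between the genotypes. Members were 0.790% of nuclei kept in Het (interval 0.599 to 1.02) and 1.03% in WT (interval 0.795 to 1.31). The ratio was 0.769, with an interval of 0.530 to 1.11 that holds 1. Of excitatory nuclei they were 2.46% of 2317 and 2.67% of 2470, a ratio of 0.921 (interval 0.634 to 1.33). Beside these, excitatory nuclei as a whole were 32.1% and 38.4% of nuclei kept. With at least 3 Foxp2 UMIs, a difference in the share of nuclei kept was not detectable at this depth. With at least 2 UMIs, which gave 84 Het and 109 WT nuclei, the ratio was 0.687 with an interval of 0.510 to 0.921 that does not hold 1, and among excitatory nuclei at that minimum it was 0.822 (interval 0.611 to 1.10).

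The targeted gene was low in both libraries. Capza2 (chr6:17636234-17666972, GRCm38) had 33 UMIs in 24 Het members and 58 UMIs in 31 WT members, 46.5 against 69.3 CPM. The log2 ratio was -0.57, with an interval of -1.24 to 0.07 that holds 0, and with each nucleus weighted alike it was -0.12. In the Tshz2 nuclei the log2 ratio was -0.62 (interval -0.88 to -0.37). Reads near the 3′ end check the label only if the deleted part lowers the transcript, which the labels do not tell. Capza1, the other alpha subunit, stood at 70.5 and 63.3 CPM (log2 ratio 0.15, interval -0.43 to 0.74), and Capzb at 22.6 and 23.9 (-0.08, interval -1.13 to 0.94).

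Between the libraries, 86 of 2602 genes with at least 100 UMIs (3.31%) were at least 1.5-fold higher in Het and 112 (4.3%) at least 1.5-fold lower. The median log2 ratio was -0.03, and with that median set to 0 the counts were 95 higher and 78 lower. The 6 mitochondrial genes over that minimum were all lower in Het, with a median of -1.30. Ttr was higher, at 102 against 32.3 CPM (log2 ratio 1.65), and its log2 ratio in Tshz2 nuclei was 1.74. With nuclei of 2 Foxp2 UMIs added, the Ttr ratio turned to -0.92, and 1 WT nucleus among those added held 220 Ttr UMIs where the next held 3.

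Kcnh8 had the largest named difference, with 238 UMIs in 21 Het members and 52 UMIs in 9 WT members, 335 against 62.1 CPM (log2 ratio 2.43, interval 1.99 to 2.89). Dcc stood at 1708 against 566 CPM (1.59, interval 1.44 to 1.75), with a median of 10 UMIs per Het nucleus and 0.5 per WT nucleus. Cpne4, a calcium-dependent membrane-binding protein gene, stood at 803 against 317, and the contactin gene Cntn6 at 708 against 283. Il1rapl2, Ptchd4, Sgcd, Ptprk, Vwc2l, Robo1, Klhl1 and Luzp2 made up the 12 highest. In single nuclei the libraries overlapped for each of these genes, since both held nuclei at 0 and nuclei at high counts.

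Dpp10 held the most UMIs of the lower genes, at 8432 CPM in Het and 14261 in WT (log2 ratio -0.76, interval -0.80 to -0.71). It was detected in 68.4% of Het and 92.4% of WT members, with medians of 65 and 158 UMIs. Sdk1, an adhesion protein gene, stood at 70.5 against 183 CPM (-1.37), and Slit2, a ligand of Robo receptors, at 157 against 303 (-0.96). Mei4, Mpped1, Ankrd33b, Sltm, Cntn5, Kif13b, Dpyd, Car10 and Plxdc2 made up the 12 lowest. The sign turned for Cntn5 with at least 2 Foxp2 UMIs (0.071), for Luzp2 with at least 5 (-0.017) and for Mpped1 within the largest sub-cluster (1.22).

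**Figure D5:**
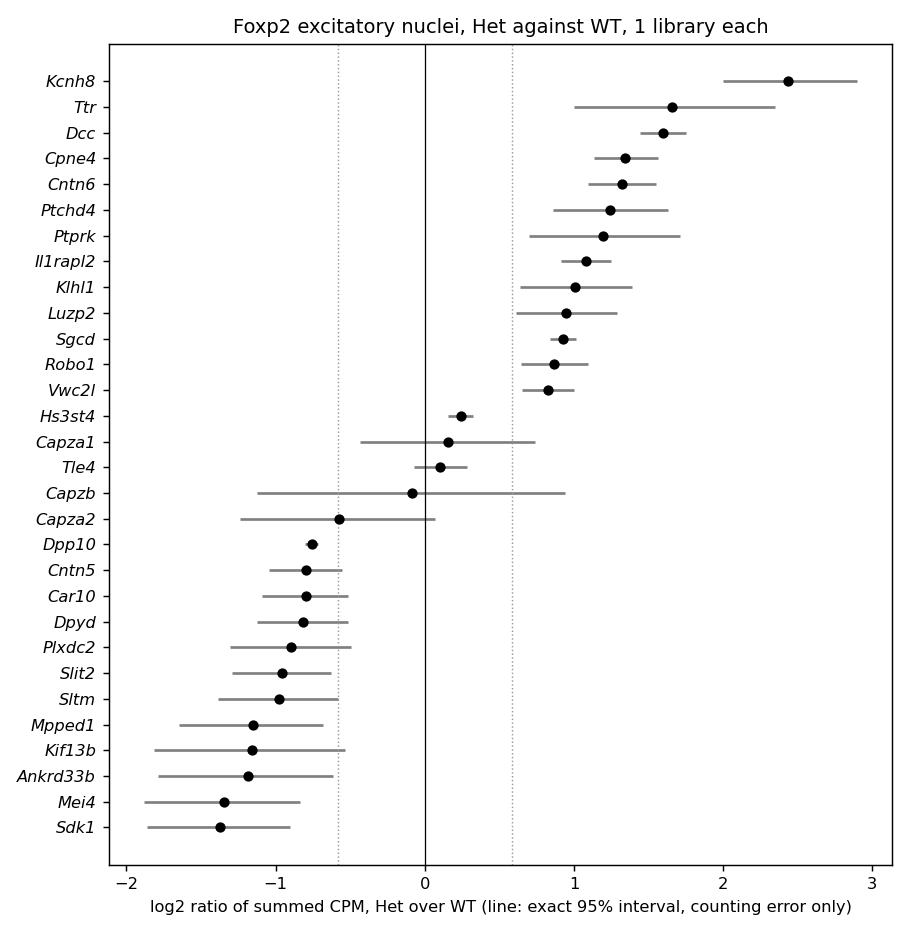
Log2 ratio of summed CPM, Het over WT, in Foxp2 excitatory nuclei, for the 24 named genes, Capza2, Capza1, Capzb, Hs3st4, Tle4 and Ttr; lines are exact 95% intervals that cover counting error only, and dotted lines mark 1.5-fold. Kcnh8 lay at 2.43 and Sdk1 at -1.37, while the Capza2 interval, -1.24 to 0.07, holds 0.

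The libraries held the sub-clusters in different numbers. Sub-cluster 0, with high Kcnh8 and Dcc and low Dpp10, held 18 of 57 Het and 10 of 66 WT members, and sub-clusters 2 and 3, with high Dpp10, held 15 Het and 35 WT members. The named genes took part in the clustering, so giving both libraries the same mix can itself shrink their differences. With that mix, all 24 genes kept their sign, but only 5 of the 12 higher genes and 9 of the 12 lower ones stayed at least 1.5-fold apart. Kcnh8 then had a log2 ratio of 1.57, Dcc 0.95 and Dpp10 -0.16, while Sdk1 stayed at -1.40 and Ptprk at 1.31. Within sub-cluster 0 alone, the log2 ratio was -2.45 for Dpp10, 1.59 for Kcnh8 and 0.58 for Dcc. Without sub-cluster 1, Dpp10 had a log2 ratio of -0.87. Split at 3 Tshz2 UMIs, the 24 genes had the same sign on either side. These genes were picked for their difference over the same members, so that choice itself favours a shared sign. On both sides, 7 of the 12 higher genes and 6 of the 12 lower ones were at least 1.5-fold apart. Some intervals within a side held 0, as for Mei4 with at least 3 Tshz2 UMIs (-1.01 to 0.66). In Tshz2 nuclei, 0 of the 24 were at least 1.5-fold apart in the same direction, and Dpp10 had a log2 ratio of 0.37 there and -0.31 in other excitatory nuclei.

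The genes that named the group were compared as well. Hs3st4 was at 3308 against 2801 CPM (log2 ratio 0.24, interval 0.16 to 0.32) and at 0.05 with each nucleus weighted alike, and Tle4 at 720 against 670 (0.10, interval -0.07 to 0.28). Rorb, among the leading genes, was past 1.5-fold, at 281 against 184 CPM, while Hs3st5 stood at 240 against 345. Of the 13 heparan sulfate genes over the minimum, 0 were past 1.5-fold in either direction and 10 were below 0 (median log2 ratio -0.27), against 1422 of all 2602 genes below 0. That median turned to 0.049 with the same mix of sub-clusters, 0.0096 with at least 2 Foxp2 UMIs, 0.15 with at least 5 and 0.056 with at most 2 Tshz2 UMIs. Of 25 axon guidance genes, 4 were higher (Dcc, Robo1, Unc5c and Sema5a) and 3 lower (Slit2, Sema3e and Unc5d), with a median of -0.02. Of 36 synaptic and cell adhesion genes, 3 were higher and 3 lower. Over all 2602 genes, 3.31% were higher and 4.3% lower. Of 8 actin-capping genes, Cd2ap alone passed 1.5-fold, at 109 against 70.5 CPM, and of 12 Arp2/3 and WAVE complex genes, which drive branched actin, Arpc2 alone did, at 60.6 against 95.6.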

How the data were processed

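Nuclear RNA was measured with 10x Genomics 3′ v3 chemistry, per the labels' protocols. The deposited values are unnormalised UMI counts, which the authors produced with Cell Ranger 7.1.0 on mm10 per the submitters' processing notes. Of 32285 gene identifiers, 32235 matched GENCODE M21 (GRCm38), whose coordinates are used. All later steps ran in Python 3.11.15 (numpy 2.4.6, scipy 1.17.1, scanpy 1.11.5, leidenalg 0.10.2).

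UMIs were summed per gene over the members of each library and scaled to CPM. Ratios carry exact conditional binomial intervals and shares Clopper-Pearson intervals, at 95%. The ratio intervals were checked on simulated counts with every UMI drawn independently, so spread between nuclei was left out of that check. Genes needed at least 100 UMIs. Called meant 1.5-fold between Het and WT, and 2-fold in both libraries against other nuclei. CA1 nuclei had at least 2 UMIs of Mpped1 and Fibcd1. Doublets were scored with Scrublet and not removed from the main values, because its threshold marked 0.0139% of Het and 8.05% of WT nuclei. Sub-clusters used 2000 variable genes, 20 principal components, 15 neighbours and Leiden resolution 0.5.

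Named genes between Het and WT were the 12 highest and 12 lowest by the interval bound nearest to 0, with UMIs in at least 30 members and the same sign with nuclei weighted alike. Against other nuclei they were the 15 highest and 10 lowest by the smaller ratio. The members and gene lists were chosen with earlier results of these data known. Some genes that this rule picks are not reported here.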

Additional observations from a re-analysis of the deposited data

How the results depend on the processing

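No paired analysis was possible because each genotype was 1 library. The share ratio ran from 0.662 with at least 5 Foxp2 UMIs to 0.921 among excitatory nuclei. Its own interval held 1 under each setting but at least 2 Foxp2 UMIs (0.687, interval 0.510 to 0.921).

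Counts of genes at least 1.5-fold higher and lower in Het, 86 and 112, became 235 and 310 with a minimum of 50 UMIs per gene, 38 and 26 with 200, 23 and 26 after thinning to 3000 UMIs, and 38 and 31 in the largest sub-cluster, each over a different number of genes. With at least 5 Foxp2 UMIs 47 were higher. Among members with at least 3 Tshz2 UMIs 48 were lower, and with at most 2, 62. Centring the median at 0 gave 95 higher and 78 lower. The Capza2 log2 ratio was -1.30 in the largest sub-cluster and -1.34 after thinning.

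Against other excitatory nuclei, 807 genes were higher with a minimum of 50. Against Tshz2 nuclei, 60 were higher and 135 lower after thinning, 161 were lower with a minimum of 200, and 383 without sub-cluster 1. Both Hs3st4 and Tle4 were found in 81.2% of WT members after thinning.

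Of 233 list medians under other settings, 5 moved outside the main interval: heparan sulfate genes to 0.15 with at least 5 Foxp2 UMIs and -0.53 with at least 3 Tshz2 UMIs, sodium and calcium channels to 0.085 with at least 3 Tshz2 UMIs, axon guidance to 0.22 after thinning, and the actin-capping list to -1.16 with at most 2 Tshz2 UMIs, where it held 1 gene. Lists with 5 or fewer genes over the minimum had an unbounded main interval, so their medians could not count as moved. These were the FOXP family, TLE corepressors, reported FOXP2 targets, metabotropic glutamate receptors and immediate early genes. A minimum of 1000 genes per nucleus kept the same members, so no median could move under it. Of the genes whose interval did not hold 0, 4 changed sign: with at least 2 Foxp2 UMIs Cntn5 (0.071) and Ttr (-0.92), with at least 5 Luzp2 (-0.017), and in the largest sub-cluster Mpped1 (1.22). Tle4, Capza1 and Capzb, whose intervals hold 0, also changed sign, as far as -0.17 for Tle4 and 1.39 for Capzb in the largest sub-cluster and -0.61 for Capza1 after thinning. Mei4, Slit2 and Car10 had no value in the largest sub-cluster, and lists with no gene over the minimum gave none. The cause of these shifts was not tested. Settings by Tshz2, by sub-cluster mix and without sub-cluster 1 were chosen after seeing the data.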
